A study of Mus musculus with 157 samples.

Results

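The mRNAs carried by light polysomes were compared between LPS-activated B cells that met etoposide after the kinase ATM had been blocked and cells that met etoposide alone. Splenic B cells of C57BL/6Babr mice, taken with a B cell isolation kit, had grown in 10 µg/ml LPS for 48 h and then had 20 µM etoposide for 4 h (LPS+ET), or had 47 h of LPS, 10 µM of the ATM inhibitor KU55933 for 1 h and then the same etoposide (LPS+ET+KU). Cells with LPS for 48 h and no drug (LPS) are given beside them as a background. No group had KU55933 without etoposide, so an effect of the inhibitor in undamaged cells cannot be told apart from its effect on the damage response. Every group was lysed after 3 min in cycloheximide at 100 µg/ml, and the extract was spread over a sucrose gradient. Per the study, fractions 8 to 10 hold light polysomes. Each fraction was made into a 3′ end library, in which reads pile up at poly(A) sites. The members were the libraries whose column name gave etoposide and a fraction from 8 to 10, with or without KU55933. These were 24 of the 157 libraries, from 8 of the 12 gradients of the series. A gradient was identified by its treatment and by the tag of its pool, LUL15, LUL16, LUL17 or LUL18. Every tag occurred once per treatment, so 4 LPS+ET+KU gradients were set against 4 LPS+ET gradients of the same pools. Values of a group are listed below in the order LUL15, LUL16, LUL17, LUL18.

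ATM is the kinase that DNA double-strand breaks activate first. Etoposide makes such breaks by trapping topoisomerase II on DNA. ATM phosphorylates p53 and the p53 inhibitor Mdm2, after which p53 builds up and switches on genes for cell cycle arrest, death and its own feedback, and ATM also passes a signal to NF-kB. A polysome is an mRNA with several ribosomes on it. Light polysomes carry few ribosomes per mRNA, either since the coding sequence is short or since initiation is slow, and heavy polysomes carry many. In B cells, programmed breaks occur during class switching, so ATM is also in use without any drug.

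A level here is the mean of the counts scaled by library total (CPM, so that each library has the same sum) of fractions 8, 9 and 10, each with the same weight, and is given as mean ± SD of 4 gradients. Library totals ranged from 116995 counts (LPS+ET of pool LUL16, fraction 10) to 2624736 counts, with a median of 859384.5, and the gradients held 1926156 to 7287764 counts in light polysomes. Per the study's methods the fractions were brought to a common RNA concentration before library preparation, so a total does not measure how much mRNA the fraction held, and a level is a share of the mRNA in the fraction. A level in light polysomes can therefore differ since the cell holds more of the mRNA or since the mRNA sits elsewhere in the gradient, and these cannot be told apart from this class alone. Both gradients of pool LUL16 stood apart: mt-Nd4, a mitochondrially encoded mRNA, was at 945 CPM with the inhibitor and 7470 CPM without it in that pool, against 25605 to 54937 CPM in the other 6 gradients of both groups. Without that pool 948 genes were called instead of the 531 below. The most abundant mRNAs in the class were mt-Nd4, Igkc, mt-Cytb, Rps20 and mt-Nd1, and none of them passed the test.

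With the inhibitor, 531 of 9922 genes differed in light polysomes at an adjusted p under 0.01 (edgeR's quasi-likelihood test on counts summed over fractions 8 to 10, with pool as a block), which is 5.35% of the genes tested. Of these, 191 (1.93%) were higher and 340 (3.43%) lower with KU55933, and 275 had a log2 difference beyond 1 in size. The sign was the same in all 4 pools for 524 of the 531 and in all 3 fractions for 489. The values of both groups did not overlap for 258 of the 531, and for 706 of all genes tested (7.12%). The fit without the pool block called 29 genes, 14 of them higher, and all 29 were among the 531. At an unadjusted p under 0.05 the fit with the block gave 2834 genes and the fit without it 1515. Fits that used the same genes but gave each fraction equal weight (limma on log2(CPM + 1)) called 468 genes, of which 267 were higher and 201 lower. That split differs from the main one, as 57.1% of its calls were higher against 36% in the edgeR fit, and its median over all genes was 0.089 on the log2 scale. edgeR with library totals alone in place of TMM called 332 higher and 242 lower, with a median over all genes of 0.112. Of the 531 genes, 355 were also called by limma with equal weight of the fractions, all with the same sign. Counts that leave out 1 pool or 1 gradient ranged from 123 (without pool LUL18) to 1103 (without the LPS gradient of LUL16), and of the 110 genes named by a fixed rule 90 were called and 32 kept their call each time. In 82 of the 110 the counted site lay in an untranslated exon, and in 90 it lay within 100 bases of an annotated transcript end. The plot of all genes shows the calls against abundance.

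**Figure D1:**
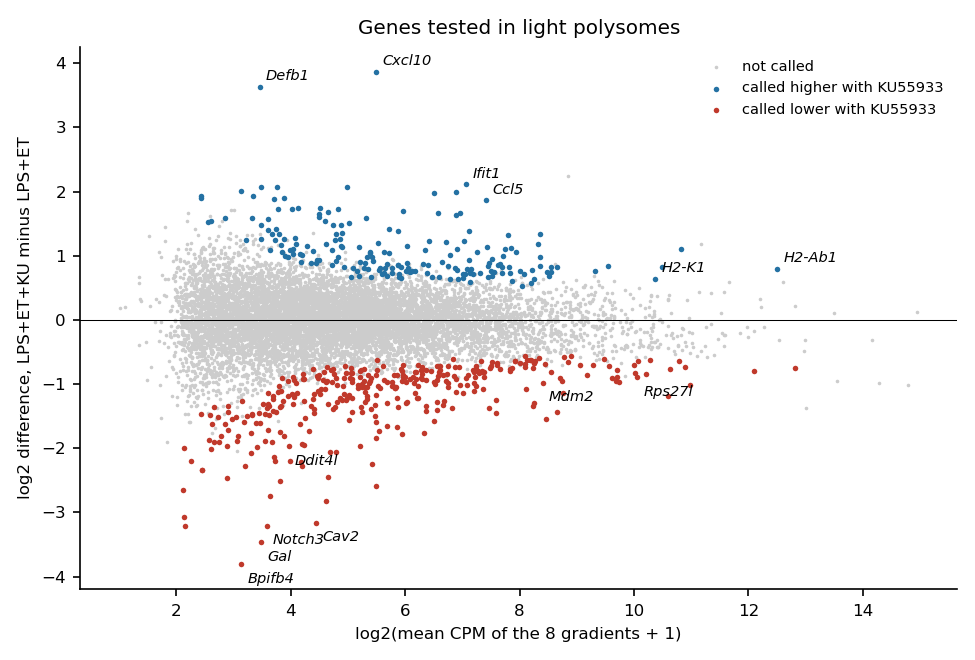
Log2 difference between LPS+ET+KU and LPS+ET in light polysomes (y axis, edgeR) against log2 of the mean CPM of the 8 gradients plus 1 (x axis) for the 9922 genes tested. Blue points are the 191 genes called higher with KU55933 and red points the 340 called lower. Cxcl10 and Defb1 lie highest, and Bpifb4, Gal and Notch3 lie among the lowest.

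A minority of the p53 target mRNAs, 19 of 47 tested, fell in light polysomes when ATM was blocked, beside 3.43% of all genes tested. Of 61 symbols in 4 lists of p53 targets, 56 were in the table and 47 were tested. Of the 47 none was higher with KU55933, and 37 had a log2 difference below 0. Their median difference was -0.65, beside -0.0016 over all genes tested. With equal weight of the fractions 13 fell and 1, Gadd45b, rose. Without the pool block only Ppp1r13l passed. The feedback genes had the lowest median, -0.95 over 6 tested, with 5 lower. In the list of repair and metabolism the median was -0.65 over 15 tested with 6 lower, in the arrest list -0.64 over 16 with 6 lower, and in the death list -0.56 over 11 with 3 lower.

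Among the feedback genes, Mdm2, the ubiquitin ligase that degrades p53, was at 477, 303, 504 and 458 CPM in LPS+ET and at 255, 156, 298 and 250 CPM in LPS+ET+KU. The groups did not overlap, and LPS cells held 80.1 ± 8.24 CPM. The log2 difference was -0.98 (SE 0.15, adjusted p = 0.000509). Ppm1d, the phosphatase Wip1 that switches off ATM and p53, went from 58.8 ± 6.34 to 31.5 ± 8.02 CPM (log2 -1.03, SE 0.18, adjusted p = 0.00138), with 14.7 ± 3.13 CPM in LPS. Mdm4, the p53 inhibitor related to Mdm2, had a log2 difference of -0.92 (SE 0.16, adjusted p = 0.000958), and its groups overlapped. Ppp1r13l, which encodes the p53 inhibitor iASPP, was at 24, 8.21, 25.7 and 31 CPM in LPS+ET. In LPS+ET+KU it was at 4.19, 2.59, 5.10 and 3.35 CPM, and in LPS at 1.29 ± 0.422 CPM. Its log2 difference of -2.52 (SE 0.29, adjusted p = 3.86e-05) was the largest among the p53 targets.

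Both death receptors tested fell. Fas, the death receptor, was at 61.6, 40.2, 78.7 and 57.7 CPM in LPS+ET and at 33.2, 14.0, 29.4 and 37.9 CPM in LPS+ET+KU (log2 -1.17, SE 0.19, adjusted p = 0.000621). All 4 inhibitor gradients lay below the lowest etoposide gradient. Tnfrsf10b, the TRAIL receptor, went from 68.2 ± 10.3 to 38.4 ± 10.5 CPM, and LPS cells had 3.98 ± 1.27 CPM (log2 -1.03, SE 0.16, adjusted p = 0.000425). Trp53i11 was the remaining call of this list, with a log2 difference of -0.56 (SE 0.13, adjusted p = 0.00885), but in fraction 8 alone its difference was 0.27 (adjusted p = 0.336). Other death genes did not pass: Bbc3 (Puma) had means of 82 and 83 CPM without and with the inhibitor, with a log2 difference of 0.043 and an adjusted p of 0.901, Pmaip1 (Noxa) had -0.14 (adjusted p = 0.589) and Bax had -0.44 (adjusted p = 0.062).

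Of the arrest genes, Cdkn1a, the p21 inhibitor of cyclin-dependent kinases, missed the threshold. It was at 827, 818, 632 and 807 CPM in LPS+ET, at 568, 351, 515 and 640 CPM in LPS+ET+KU and at 31 ± 8.10 CPM in LPS, so the inhibitor gradients were lower in each pool while the groups overlapped. Its log2 difference was -0.63 (SE 0.15, adjusted p = 0.0128). Ccng1, cyclin G1, fell from 963 ± 225 to 593 ± 239 CPM (log2 -0.91, SE 0.17, adjusted p = 0.00222). Zmat3, an RNA-binding p53 target, fell from 291 ± 41.7 to 174 ± 38.9 CPM (log2 -0.74, SE 0.15, adjusted p = 0.00312). Ddit4l, an inhibitor of mTOR signalling, fell from 22.3 ± 7.29 to 6.83 ± 3.27 CPM (log2 -1.96, SE 0.25, adjusted p = 9.40e-05), beside 0.553 ± 0.257 CPM in LPS. Gtse1 had a log2 difference of -1.06 (SE 0.21, adjusted p = 0.00341). In the repair and metabolism list, Polk, a translesion DNA polymerase, had -1.21 (SE 0.18, adjusted p = 0.00034), and Rps27l, a small ribosomal protein paralog, went from 1267 ± 216 to 856 ± 217 CPM. For the genes named in this list and the arrest list, other than Gpx1, the glutathione peroxidase (519 ± 39.9 to 331 ± 76.9 CPM, with 529 ± 84.5 CPM in LPS), the LPS level lay below the LPS+ET+KU level.

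Some of the mRNAs that fell furthest were near 0 in LPS cells. Of the 340 lower genes, 93 had a mean under 5 CPM in LPS and 44 under 1 CPM, and 12 of the 191 higher genes had a mean under 5 CPM in LPS. The share of all genes tested at such levels was not counted, so these counts are not read as a trait of the falls. A gene that is high in 1 group alone can pass the filter on low counts. Notch3, a Notch receptor, was at 20.2, 15.4, 16.5 and 27.5 CPM in LPS+ET, at 3.48, 1.27, 0.971 and 2.21 CPM in LPS+ET+KU and at 0.325 ± 0.0606 CPM in LPS (log2 -3.20, SE 0.28, adjusted p = 3.65e-06). Gal, the neuropeptide galanin, was at 27.1, 3.24, 22.6 and 22.8 CPM in LPS+ET and at 1.93, 1.22, 1.83 and 0.630 CPM with the inhibitor (log2 -3.47, SE 0.39, adjusted p = 2.97e-05). The low etoposide value is that of pool LUL16. Cav2, a caveolin, was at 78.5, 10.4, 31.2 and 30.4 CPM in LPS+ET and at 9.55, 1.38, 2.39 and 2.53 CPM in LPS+ET+KU (log2 -3.16, SE 0.38, adjusted p = 4.90e-05). The other large falls were Bpifb4 (-3.81), Prkar1b (-3.21), Lrrc3 (-3.07), 1700003M07Rik (-2.82), Sec14l5 (-2.75), Gm12064 (-2.65) and Pgf, a growth factor of the VEGF family (-2.46).

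**Figure D2:**
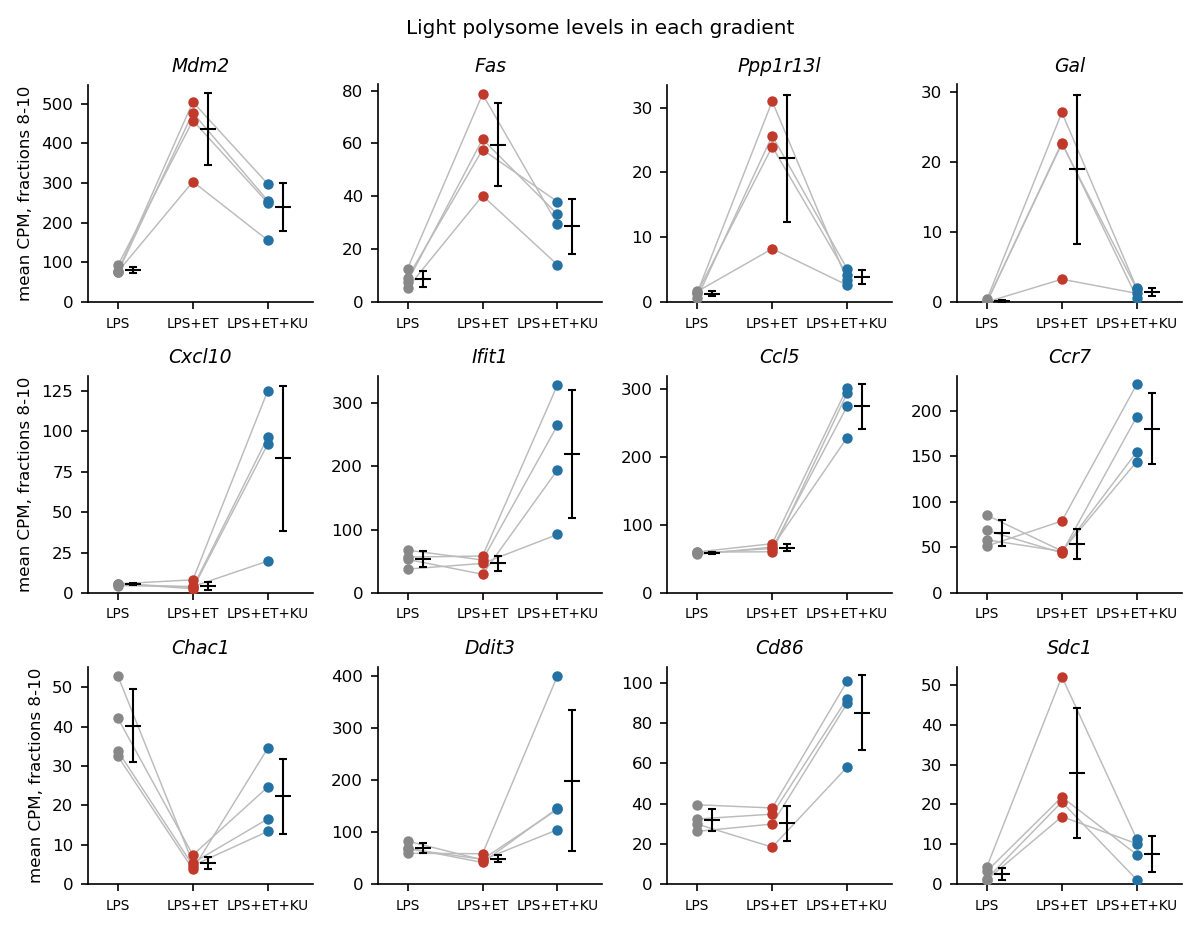
Level in light polysomes (y axis, mean CPM of fractions 8 to 10) of 12 mRNAs in LPS (grey), LPS+ET (red) and LPS+ET+KU (blue), with 1 point for each gradient, grey lines between gradients of a pool and black bars for the mean ± SD of 4 gradients. Mdm2, Fas, Ppp1r13l, Gal and Sdc1 were lower with KU55933 in each pool, and the other 7 mRNAs were higher in each pool.

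Of the interferon-response mRNAs, 10 of 40 tested rose, beside 1.93% of all genes tested. Type I interferon activates a transcription factor complex that binds the interferon-stimulated response element in the promoters of antiviral genes. Of 46 symbols in the list 44 were in the table and 40 were tested. Of the 40 none fell with KU55933, and 33 lay above 0, with a median of 0.46 (0.64 with equal weight of the fractions, where 14 rose). Without the pool block Cxcl10, Ifit1 and Rsad2 passed. The 10 were Cxcl10, Ifit1, Rsad2, Ifit3, Oasl1, Ifit2, Gbp5, Isg15, Gbp7 and Stat2. Promoter sequences of 3 of them, picked among those that hold a match, are shown from 250 bases before the start to 50 after it (RefSeq, GRCm38.p6, on the strand of the gene). Capitals mark each match on either strand to the core of the response element, which is GAAA, any 2 bases and GAAA again. They lie at chr5:92348840-92349139 on the minus strand (Cxcl10), chr19:34640639-34640938 on the plus strand (Ifit1) and chr12:26456403-26456702 on the minus strand (Rsad2).
Cxcl10: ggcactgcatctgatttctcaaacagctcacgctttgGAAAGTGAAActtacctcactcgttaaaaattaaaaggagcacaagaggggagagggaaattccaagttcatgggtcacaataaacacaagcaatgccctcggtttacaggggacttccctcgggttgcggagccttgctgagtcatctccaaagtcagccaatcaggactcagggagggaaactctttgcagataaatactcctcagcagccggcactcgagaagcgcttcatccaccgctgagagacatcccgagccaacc
Ifit1: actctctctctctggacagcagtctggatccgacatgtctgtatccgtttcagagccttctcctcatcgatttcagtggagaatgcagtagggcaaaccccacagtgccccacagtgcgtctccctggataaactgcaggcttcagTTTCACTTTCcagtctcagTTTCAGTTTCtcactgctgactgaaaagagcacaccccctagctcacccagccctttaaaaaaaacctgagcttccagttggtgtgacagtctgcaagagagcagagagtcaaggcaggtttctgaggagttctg
Rsad2: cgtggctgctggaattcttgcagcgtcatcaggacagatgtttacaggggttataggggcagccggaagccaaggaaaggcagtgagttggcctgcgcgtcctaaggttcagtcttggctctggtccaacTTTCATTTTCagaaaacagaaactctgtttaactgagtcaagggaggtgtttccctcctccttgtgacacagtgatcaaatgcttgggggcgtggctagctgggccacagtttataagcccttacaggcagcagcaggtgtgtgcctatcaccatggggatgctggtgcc
The match began 213 bases before the start in Cxcl10 and 120 bases in Rsad2, and Ifit1 held a pair of matches, at 104 and 85 bases. Among the interferon genes tested, 30 had a promoter in the table and 19 of them (63.3%) held this core, including 8 of the 10 that rose. Of the 7213 tested genes with a promoter 3.77% did, as did 3.44% of all 32851 promoters in the table. A match is a run of letters, not a measured site. The list was made of interferon-response genes, so its share of matches does not bear on the rise.

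Cxcl10, the chemokine that draws CXCR3-bearing T cells, had the largest rise of all. It was at 8.11, 3.99, 2.64 and 3.46 CPM in LPS+ET and at 125, 19.7, 92.2 and 96.5 CPM in LPS+ET+KU, so the groups did not overlap and the inhibitor gradient of pool LUL16 was the lowest. LPS cells held 5.38 ± 0.565 CPM. The difference was 14.6-fold (log2 3.87, SE 0.39, adjusted p = 9.98e-06). Ifit1, an antiviral protein that binds viral RNA, was at 58.3, 46.6, 52.1 and 29.5 CPM in LPS+ET and at 329, 92.4, 265 and 194 CPM in LPS+ET+KU (log2 2.11, SE 0.21, adjusted p = 9.37e-06), beside 53.7 ± 12.3 CPM in LPS. Rsad2, the antiviral enzyme viperin, went from 12.2 ± 6.12 to 48.7 ± 14.8 CPM (log2 2.08, SE 0.25, adjusted p = 4.90e-05). Again the LUL16 gradient was the lowest of its group for both. Ifit3 went from 4.10 ± 2.46 to 20.0 ± 10.6 CPM (log2 1.89, SE 0.30, adjusted p = 0.0006), and the LPS level was 20.1 ± 7.64 CPM. Isg15, the ubiquitin-like antiviral modifier, rose from a mean of 75.2 to 185 CPM with the inhibitor (log2 1.23, adjusted p = 0.00069). Not every interferon gene moved: Mx1 had -0.19 (adjusted p = 0.645), Usp18 0.19 (adjusted p = 0.61) and Irf7 0.94 (adjusted p = 0.0277).

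Some chemokines, cytokines and their receptors were also higher. Of 28 symbols 26 were in the table and 19 were tested, with 8 higher, 1 lower and a median of 0.37. Over all genes tested 1.93% were higher and 3.43% lower. The list shares Cxcl10 with the interferon list. Ccl5, a chemokine for T cells, was at 72.3, 67.3, 65.2 and 60.4 CPM in LPS+ET and at 301, 228, 274 and 293 CPM in LPS+ET+KU, with 58.7 ± 1.63 CPM in LPS. The groups stood far apart, with a log2 difference of 1.86 (SE 0.14, adjusted p = 5.43e-07). Ccrl2, an atypical chemokine receptor, went from 46.5 ± 18.3 to 188 ± 51.6 CPM (log2 1.99, SE 0.24, adjusted p = 4.96e-05). Ccr7, which guides lymphocytes to the T cell zone, was at 45.6, 79.0, 43.9 and 46.0 CPM in LPS+ET and at 144, 229, 194 and 155 CPM in LPS+ET+KU (log2 1.64, SE 0.21, adjusted p = 8.71e-05). These 3 and Cxcl10 also passed without the pool block. Ltb, lymphotoxin beta, rose too (log2 1.15, adjusted p = 0.00724), as did Cxcr5 and Il16, while Csf1 fell (log2 -1.31, adjusted p = 0.00285). Of the NF-kB subunits and feedback genes, 21 were tested and only Cd83 was called, higher at 0.88 (SE 0.13, adjusted p = 0.000425). That is near the 5.35% called over all genes tested.

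Of the mRNAs of the integrated stress response, 11 of 26 tested rose, beside 1.93% of all genes tested. In this pathway kinases phosphorylate eIF2α, general initiation slows, and the transcription factor Atf4 is made and drives genes for amino acid supply and for the response's own shutdown. All 30 symbols were in the table and 26 were tested, of which 1 was lower and 24 lay above 0, with a median of 0.64 (0.74 with equal weight). None of them passed without the pool block. Promoters of Chac1 (chr2:119350992-119351291, plus strand) and Nupr1 (chr7:126625421-126625720, minus strand) are shown in the same way, with matches to TGATGNAA, the core of the element bound by C/EBP and ATF factors, on either strand in capitals.
Chac1: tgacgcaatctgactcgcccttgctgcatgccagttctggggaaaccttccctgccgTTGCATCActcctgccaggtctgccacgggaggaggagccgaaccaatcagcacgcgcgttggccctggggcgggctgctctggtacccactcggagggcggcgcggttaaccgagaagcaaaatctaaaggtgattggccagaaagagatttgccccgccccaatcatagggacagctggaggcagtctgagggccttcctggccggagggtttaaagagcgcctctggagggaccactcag
Nupr1: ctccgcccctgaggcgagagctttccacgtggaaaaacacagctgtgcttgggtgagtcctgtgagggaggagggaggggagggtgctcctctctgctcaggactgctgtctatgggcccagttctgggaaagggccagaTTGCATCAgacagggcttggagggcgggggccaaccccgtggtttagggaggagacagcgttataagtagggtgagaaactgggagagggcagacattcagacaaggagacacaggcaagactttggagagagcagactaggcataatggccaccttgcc
The matches began 193 bases (Chac1) and 110 bases (Nupr1) before the start. Of the 21 tested genes of this list with a promoter, 5 (23.8%) held the core. These included only 4 of the 10 that rose and had a promoter, namely Chac1, Nupr1, Pck2 and Trib3. Of the tested genes with a promoter 2.75% held it, and 3.97% of all promoters did. This list too was made of genes of the response, so its share does not bear on the rise.

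Chac1, which breaks down glutathione, was at 4.66, 3.70, 7.36 and 5.33 CPM in LPS+ET and at 13.4, 34.5, 24.6 and 16.5 CPM in LPS+ET+KU (log2 1.90, SE 0.26, adjusted p = 0.000167). The groups did not overlap, and the LPS level, 40.3 ± 9.39 CPM, was above both. Ddit3, the transcription factor Chop, was at 47.4, 58.1, 41.3 and 46.3 CPM in LPS+ET and at 143, 400, 146 and 104 CPM in LPS+ET+KU (log2 1.66, SE 0.25, adjusted p = 0.000425), with pool LUL16 highest. Trib3, a pseudokinase induced by Chop, was at 4.66, 12.3, 5.69 and 5.64 CPM and at 18, 57.4, 14.8 and 13.0 CPM, again with LUL16 highest in both groups (log2 1.74, SE 0.33, adjusted p = 0.00222). Nupr1, a stress-induced chromatin protein, had a log2 difference of 2.06 (SE 0.39, adjusted p = 0.00222), and its groups overlapped. Atf4 itself rose from a mean of 1058 to 2545 CPM, with 2233 CPM in LPS (log2 1.10, adjusted p = 0.000327). Ppp1r15a, which directs the phosphatase that restores eIF2α, rose from 68.9 to 205 CPM (log2 1.38, adjusted p = 5.66e-05). Slc7a5 and Slc38a2, amino acid transporters, rose by 0.84 and 0.85 log2 units. The single fall was Sesn2, which is also on the list of p53 arrest targets (log2 -0.64, adjusted p = 0.00463).

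**Figure D3:**
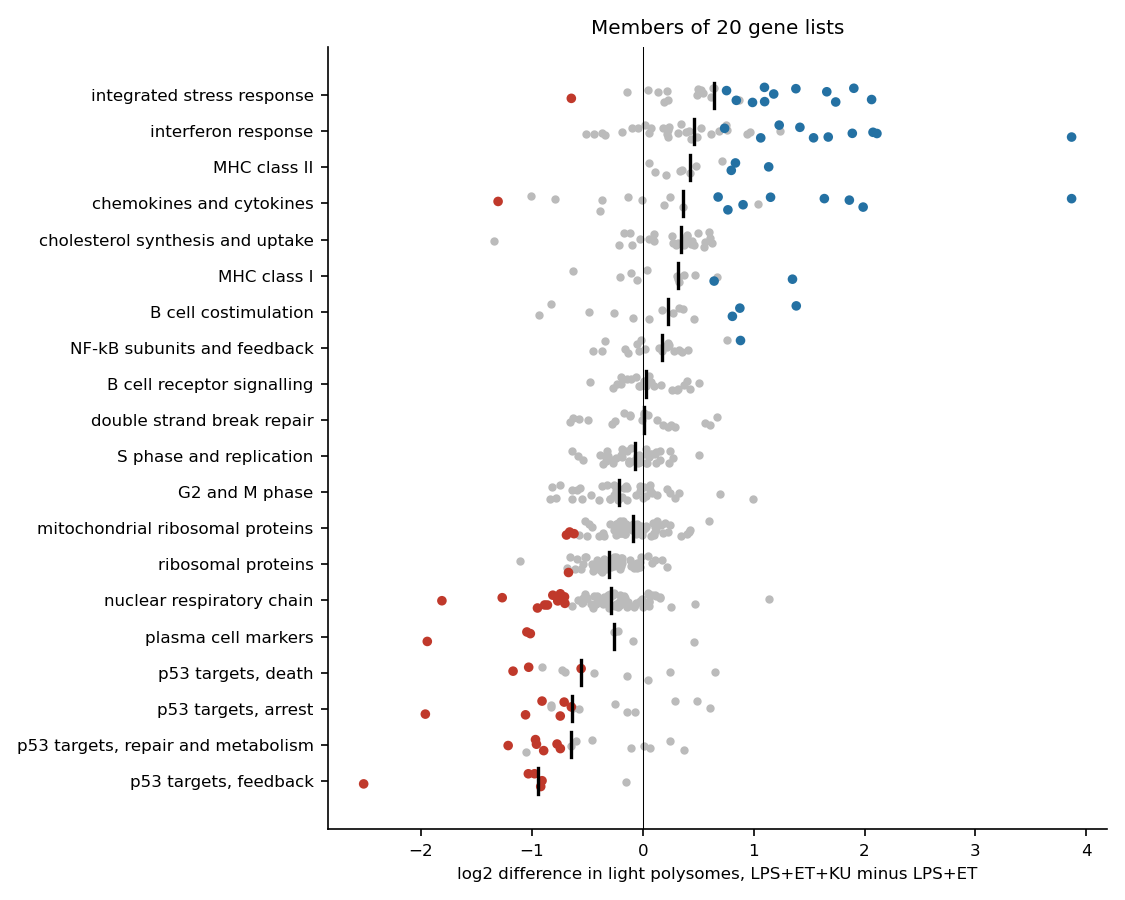
Log2 difference in light polysomes, LPS+ET+KU minus LPS+ET (x axis, edgeR), for each tested member of 20 gene lists (y axis). Blue points are members called higher and red points members called lower at an adjusted p under 0.01, grey points are not called, and black bars are list medians. The 4 p53 lists lie lowest, with medians from -0.95 to -0.56, and the integrated stress response has the highest median, 0.64.

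Some B cell activation and antigen presentation mRNAs were higher, beside 1.93% of all genes tested. Cd86, a ligand for CD28 on T cells, was at 18.3, 29.8, 34.7 and 37.8 CPM in LPS+ET and at 58.2, 89.9, 92.3 and 101 CPM in LPS+ET+KU, without overlap (log2 1.38, SE 0.16, adjusted p = 4.52e-05). Of 14 tested costimulation genes, Cd86, Cd83 and Cd69 rose and none fell. Of 11 MHC class II genes tested all lay above 0 (median 0.42) and H2-DMa, H2-Ob and H2-Ab1 rose. The H2-Ab1 call was lost with equal weight of the fractions, and in fraction 8 alone its difference was 0.0040 (adjusted p = 0.995). Of 13 class I genes tested, H2-M3 (log2 1.35, SE 0.19, adjusted p = 0.0002) and H2-K1 (log2 0.64, SE 0.13, adjusted p = 0.00337) rose. H2-K1 was at 1043, 1420, 759 and 734 CPM in LPS+ET and at 1596, 2620, 1136 and 1238 CPM in LPS+ET+KU, higher in each pool with overlap between the groups.

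Some plasma cell genes fell. Of the B cell transcription factors 24 were tested, with 2 higher and 2 lower. Zbtb32, a repressor in activated lymphocytes, was higher, while Prdm1 and Irf4 were lower. Irf4, needed for plasma cell formation, was at 141, 128, 262 and 162 CPM in LPS+ET and at 81.0, 81.1, 107 and 115 CPM in LPS+ET+KU (log2 -1.01, SE 0.14, adjusted p = 0.0002). Prdm1, the plasma cell regulator Blimp-1, had a log2 difference of -1.05 (SE 0.24, adjusted p = 0.00905) and overlapping groups. The Prdm1 call was lost with equal weight of the fractions and held in 3 of 16 fits that left out 1 gradient or pool. Sdc1, the plasma cell surface protein syndecan-1 (CD138), was at 52.1, 21.9, 20.6 and 16.9 CPM in LPS+ET, at 11.3, 7.37, 1.05 and 10.1 CPM in LPS+ET+KU and at 2.50 ± 1.57 CPM in LPS (log2 -1.94, SE 0.30, adjusted p = 0.000425). These 3 were the calls among 7 plasma cell markers tested, beside 3.43% of all genes tested that were lower. The median of these markers was -0.26 (-0.39 with equal weight of the fractions, where 2 fell). In such bulk samples fewer cells of a type and less RNA per cell cannot be told apart. The summed level of the plasma cell markers ranged from 464 to 1203 CPM in LPS+ET and from 324 to 942 CPM in LPS+ET+KU. The B cell markers summed to 1244 to 2309 CPM and 1640 to 2507 CPM, and none of 9 tested was called.

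A few early-response and clock genes differed, in both directions. Egr1, an immediate early transcription factor, was at 72.0, 45.9, 56.6 and 50.8 CPM in LPS+ET and at 14.8, 16.1, 13.6 and 19.5 CPM in LPS+ET+KU (log2 -1.96, SE 0.17, adjusted p = 3.65e-06), below the 35.8 ± 6.84 CPM of LPS. Dusp4, a phosphatase of MAP kinases, was at 31.4, 31.7, 18.2 and 26.2 CPM and at 105, 88.1, 81.3 and 106 CPM (log2 1.70, SE 0.18, adjusted p = 2.13e-05), and Dusp5, another such phosphatase, rose by 1.14 (SE 0.24, adjusted p = 0.00504). These were the calls among 24 genes tested, beside 5.35% of all genes tested. Of 13 clock genes, Per1 rose (log2 1.24, SE 0.22, adjusted p = 0.00138) and Tef fell (log2 -0.88, SE 0.15, adjusted p = 0.000966). So few calls are not read as a result about the clock genes. H2afx, whose protein ATM phosphorylates at breaks, was the single call among 17 tested ATM and damage kinase genes, beside 5.35% of all genes tested. It rose from 27.4 ± 11.7 to 75.8 ± 27.8 CPM, with a mean of 189 CPM in LPS (log2 1.42, SE 0.19, adjusted p = 0.000151). Hist3h2a, Hist1h1c and Hist1h4i rose among 19 histone genes tested, beside 1.93% of all genes tested. The median of that list was 0.34, and -0.028 in the fit of the 8 gradients alone.

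Nuclear genes of the respiratory chain fell in part. Of 75 tested, 10 were lower, beside 3.43% of all genes tested. None was higher and 60 lay below 0 (median -0.29, or -0.21 with equal weight, where 9 fell). No gene of this list was called without the pool block. Cox6b1, a subunit of cytochrome c oxidase, was at 1139, 1410, 553 and 1168 CPM in LPS+ET and at 555, 807, 317 and 611 CPM in LPS+ET+KU (log2 -0.95, SE 0.14, adjusted p = 0.000322). It was lower in each pool, yet in fraction 8 alone the difference was 0.041 (adjusted p = 0.923). Cox4i2 (log2 -1.81, SE 0.25), Cox6b2 (log2 -1.27, SE 0.19) and Atp5k, a subunit of ATP synthase (log2 -0.88, SE 0.13), fell too. Of 69 mitochondrial ribosomal protein genes tested, Mrpl33, Mrps24 and Mrpl42 fell, beside 3.43% of all genes tested, and none did with equal weight of the fractions. Of 60 cytoplasmic ribosomal protein genes tested only Rps21 fell. Their median was -0.30, but it was 0.27 in fraction 9 alone, and reads of such genes can be shared with near-identical pseudogenes.

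Groups of genes with no call included 43 G2 and M phase genes (median -0.21), 45 replication genes (-0.069), 21 genes of double-strand break repair (0.011), 23 of B cell receptor signalling (0.032), 18 translation factors with TOP motifs (-0.19), 38 of ribosome biogenesis (-0.17), 35 proteasome subunits (-0.10), 26 of cholesterol synthesis (0.34), 12 of the BCL2 family (-0.13), 37 initiation factors (-0.017), 9 immunoglobulin constant genes (0.20), 7 mitochondrially encoded genes (-0.71, and -0.18 without pool LUL16 and -1.10 without pool LUL15) and 7 topoisomerases (-0.15). A missing call does not show that these mRNAs were alike. Of the remaining lists, ER stress held 1 rise (Herpud1) and 1 fall (Sec61b) among 34 tested, and glycolysis and Hif1a targets 1 rise (Mxi1) among 26. The list of mTOR and amino acid transport held the 2 rises named above among 26. AU-rich element binding proteins held 1 fall (Rc3h2) among 18, and aminoacyl-tRNA synthetases 1 rise (Iars) and 1 fall (Mars2) among 35. Of all genes tested 5.35% were called, so 1 or 2 calls in such lists are not read as results about them.

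Among the mRNAs that the study follows for translational control, H2-K1 was the one call in this class. That call held in 7 of 16 fits that left out 1 gradient or pool. It was lost without the pool block, and in edgeR fits of fraction 8 alone (adjusted p = 0.053) and fraction 9 alone (adjusted p = 0.058). Trp53, which encodes p53, was at 188, 255, 133 and 183 CPM in LPS+ET and at 170, 234, 159 and 180 CPM in LPS+ET+KU, in overlapping ranges (log2 -0.14, SE 0.14, adjusted p = 0.556). Hif1a, the hypoxia transcription factor, had -0.16 (SE 0.13, adjusted p = 0.478), Pabpc1 -0.14 (SE 0.17), Tia1, the RNA-binding translational repressor, 0.095 (SE 0.21), its paralog Tial1 0.29 (SE 0.16) and Gadd45a 0.29 (SE 0.22). Ccnd2, cyclin D2, was higher in each pool without passing (155 ± 35.4 to 213 ± 33.7 CPM, log2 0.37, adjusted p = 0.0715), as was Atm, the target of the inhibitor (37.1 ± 5.24 to 58.4 ± 12.9 CPM, log2 0.39, adjusted p = 0.156). The Atm level does not check the inhibitor, which acts on the kinase and not on its mRNA.

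The share of an mRNA that sat in light polysomes was taken as its CPM in fractions 8 to 10 over its CPM in fractions 4 to 16. For Cdkn1a it was 30.6, 34.2, 24.6 and 25.1% in LPS+ET and 20.9, 22.5, 19.1 and 20.7% in LPS+ET+KU. The groups did not overlap, and the difference of -7.85 percentage points had an exact permutation p of 0.0286 (two-sided), the smallest that 70 splits of 8 gradients allow, and 0.286 after adjustment over 10 mRNAs. LPS cells had 19.7 ± 7.54%. For H2-K1 the share was 10.5 ± 1.52% and 13.0 ± 1.56%, higher in 4 of 4 pools (exact permutation p = 0.0857, adjusted 0.429). Within pools the H2-K1 share was 2.79, 2.38, 2.34 and 2.32 percentage points higher, a mean of 2.46 with an SD of 0.22 over the 4 differences. Taken from counts as deposited, the H2-K1 difference was 2.71 percentage points (exact permutation p = 0.571, unadjusted). Taken within pools, the exact permutation p over 16 sign flips was 0.125 for H2-K1 and for Cdkn1a, the smallest that 4 pools allow, so that this paired test, added after the values were seen, cannot pass 0.05. For Trp53 it was 14.1 ± 1.90% and 13.4 ± 1.56% (exact permutation p = 0.543), and for Hif1a 15.2 ± 1.35% and 14.2 ± 2.24% (exact permutation p = 0.486). No share passed the unpaired test after adjustment.

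For the interferon, stress response and p53 lists the medians had the same sign in the fits of heavy polysomes and monosomes: the interferon list had medians of 0.40 and 0.62 there, the integrated stress response 0.55 and 0.56, and the p53 targets -0.39 and -0.52. Cxcl10 rose by 4.38 in heavy polysomes and 3.67 in monosomes, and Mdm2 fell by 1.06 and 0.98. A test of the difference between classes called 24 of 11034 genes (0.218%) for light against heavy polysomes and 8 (0.0725%) for light polysomes against monosomes (edgeR, adjusted p under 0.01, a term per gradient), with 1167 and 1022 at an unadjusted p under 0.05. None of the p53, interferon or stress response genes named above was among them. H2-Ab1, a class II chain, was: its inhibitor difference was 1.09 log2 units larger in light than in heavy polysomes (SE 0.17, adjusted p = 0.000432), with light means of 4157 and 7434 CPM and heavy means of 10349 and 12119 CPM. Within light polysomes the H2-Ab1 difference was 0.0040 in fraction 8, 0.75 in fraction 9 and 1.01 in fraction 10. For H2-K1 the light minus heavy difference was 0.76 (adjusted p = 0.027), for Cox6b1 -1.02 (adjusted p = 0.013) and for Cdkn1a -0.83 (adjusted p = 0.049), all short of the threshold.

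Several of the genes that differed between classes changed from fraction to fraction. Sfpi1, the transcription factor PU.1, was higher with the inhibitor in fraction 8 (log2 0.94, adjusted p = 0.00333) and lower in fraction 9 (log2 -0.93, adjusted p = 0.00266) and fraction 10 (log2 -1.43, adjusted p = 0.000191). In fraction 10 it was at 1098, 915, 690 and 708 CPM in LPS+ET and at 384, 216, 386 and 420 CPM in LPS+ET+KU, whereas in fraction 8 the inhibitor gradients were the higher in each pool. Rab22a, a GTPase of endosomes, had the same order of signs (0.98, -0.86 and -1.38). Over fractions 8, 9 and 10 fitted singly, 19 genes were called in opposite directions, beside 57 called in 1 direction in all 3, of 7157 tested in all 3. Defb1 and Cdh23 were the extreme cases. Defb1, a beta-defensin gene (chr8:21776599-21795185, GRCm38), was counted at an intronic site, 17543 bases from the nearest annotated transcript end. Its rise of 3.63 log2 units came from fraction 10, where LPS+ET+KU held 43.1, 16.9, 55.1 and 99.2 CPM and LPS+ET at most 3.32 CPM. In fraction 11, outside the class, LPS+ET held 60.5, 347, 55.2 and 88.3 CPM and LPS+ET+KU at most 2.50 CPM. Cdh23, a cadherin, was counted in an intron as well, and its difference was -5.12 in fraction 8, -2.81 in fraction 9 and 2.75 in fraction 10. For both etoposide groups the library number in the column names was the same for a treatment and fraction in 3 pools and 1 higher in pool LUL16 (33 against 34 for fraction 10 of LPS+ET+KU), and of the light fractions Defb1 was highest in fraction 10 in all 4 inhibitor gradients. Within a fraction, library number and treatment cannot be told apart in any of the 4 pools.

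**Figure D4:**
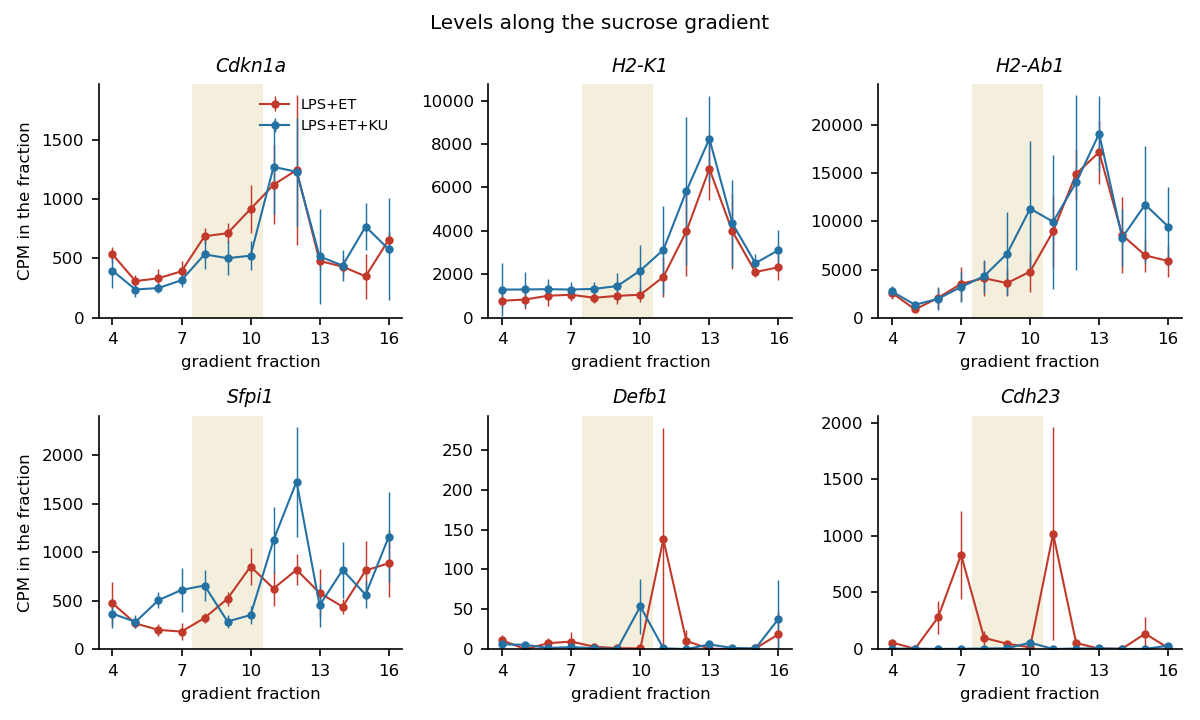
CPM in each gradient fraction from 4 to 16 (x axis) for 6 mRNAs in LPS+ET (red) and LPS+ET+KU (blue), as mean ± SD of 4 gradients, with the light polysome fractions 8 to 10 shaded. Mean levels of H2-Ab1 were higher with KU55933 in fractions 9 and 10, the difference of Sfpi1 changed sign between fractions 8 and 9, and Defb1 in LPS+ET was highest in fraction 11 and Cdh23 in LPS+ET in fractions 7 and 11.

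Markers of other cell types summed to less than those of B cells. None of the 4 natural killer cell markers in the table was tested, and Gzma and Eomes were at 0 in all 8 gradients. T cell markers summed to 157 to 431 CPM without and 121 to 520 CPM with the inhibitor, nearly all of it from Lck, and myeloid markers to 108 to 328 CPM and 95.2 to 197 CPM. None of the 3 T cell or 7 myeloid markers tested was called, though the myeloid median was -0.56, with 6 of 7 below 0. Erythroid and platelet markers summed to at most 13.9 CPM. The part of these other cells in the results was not tested.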

How the data were processed

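Light polysome libraries (fractions 8 to 10) of 4 LPS+ET and 4 LPS+ET+KU gradients were compared, with 4 LPS gradients in the fit. Per the labels and the study's methods, the authors removed PCR duplicates with random bases in the primers, mapped 3′ tags to GRCm38 with TopHat2 (2.0.12, per the submitters' processing notes) and deposited raw counts per gene, without normalization. Columns were matched to treatment and fraction by name: 79 of 157 fitted 1 labelled sample, and 78 (pools LUL16 and LUL18) fitted treatment and fraction only. The study calls its 4 sets biological replicates, and p-values measure the spread between these gradients. Counting error alone limits low genes.

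Counts were summed over fractions 8 to 10 per gradient and tested with edgeR 4.0.16 (TMM, default filter, quasi-likelihood F-test, pool and treatment as terms, two-sided). Calls used a Benjamini-Hochberg adjusted p under 0.01. The SE is the log2 difference over the square root of F. Differences between classes used 36 gradient sums with a term per gradient. limma 3.58.1 used a pseudocount of 1 CPM. DESeq2 1.42.0 (R 4.3.3), other normalizations, filters, single fractions and exclusions were alternatives. The fits were tested on simulated data. Python 3.11.15, numpy 2.4.6, pandas 2.3.3 and matplotlib 3.10.9 were used, and positions came from the deposited table, made 1-based, with GENCODE M21 annotation.

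The pool tags pair the gradients per the column names, not per a statement on animals or days. Deviations from treatment means over 8583 genes correlated at r of 0.286 to 0.760 in all 12 same-pool pairs and at -0.649 to 0.454 in 36 pairs of different pools, across genes, which are not independent replicates. The members, gene lists and tests were chosen with earlier results of these data known, so a list's direction is no independent evidence. Named genes were those the study follows and Atm, the 12 largest rises and falls of the same sign in all 4 pools with a mean of 5 CPM or more, up to 4 called members of each list, up to 5 genes in each direction per class comparison, and the 5 most abundant genes. Other genes are given as members of lists, and were chosen after their values were seen. Results of a few genes are not reported here.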

Additional observations from a re-analysis of the deposited data

Results flagged for a closer look

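Within the 2 groups of 4 gradients, 19 of 220 sets of gene levels held 1 gradient far from the other 3 (Dixon's test, which chance alone passes in about 1 of 20 sets). In LPS+ET, pool LUL16 stood apart for Ccr7 (79.0 CPM), H2-Ab1 (6742 CPM), H2-Ob (199.98 CPM), Per1 (34.4 CPM) and Trib3 (12.3 CPM), pool LUL17 for Ccnd2 (208 CPM), Cdkn1a (632 CPM) and Herpud1 (362 CPM), and pool LUL15 for Ccng1 (1297 CPM), Sdc1 (52.1 CPM) and Sfpi1 (677 CPM). In LPS+ET+KU, pool LUL16 stood apart for Cd69 (42.2 CPM), Ddit3 (400.4 CPM), H2-Ab1 (13861 CPM) and Trib3 (57.4 CPM), pool LUL15 for Cav2 (9.55 CPM) and Rpl31-ps10 (11.3 CPM), and pool LUL17 for Rps19-ps3 (10.1 CPM) and Trp53i11 (123.5 CPM).

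The inhibitor difference itself differed between light and heavy polysomes for several named genes (values are the log2 difference in light minus that in heavy). It was the higher in light polysomes for Defb1 (6.17), Cdh23 (4.33), Rpl31-ps10 (2.14), Pon3 (1.43), Psmd1 (1.30) and H2-Ab1 (1.09). It was the lower there for Gm11826 (-3.94), Rps19-ps3 (-3.04), Gm12216 (-1.99), Hyal2 (-1.47), Rab22a (-1.39) and Sfpi1 (-1.15). Against monosomes it differed for Cdh23 (5.38), Defb1 (4.26), Rasgef1b (1.4975) and Psmd1 (1.45) in one direction and for Sfpi1 (-1.34), Yipf3 (-1.19), Gm4799 (-1.07) and Higd2a (-1.03) in the other. Psmd1, a proteasome subunit, had means in light polysomes of 35.4 and 54.8 CPM without and with the inhibitor. Cdh23 fell with the inhibitor in light polysomes too (54.0 to 22.9 CPM). It fell further in heavy polysomes (204 to 7.53 CPM) and in monosomes (294 to 2.84 CPM). Rpl31-ps10, Rps19-ps3 and Gm11826 are pseudogenes, whose reads can be shared with their parent genes. The cause of these differences was not tested.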

How the results depend on the processing

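The 531 calls became 1370 at an adjusted p under 0.05, 973 without the filter on low counts, 917 in the 8 gradients alone, 345 in fraction 8 alone, 346 in fraction 10 alone and 29 without the replicate block (pool). RLE scaling gave 533 and DESeq2 670. Library totals alone gave 574, with 332 higher and 242 lower and a median over all genes of 0.112. Leaving out a gradient or pool gave 123 to 1103 calls: 144, 948, 142 and 123 without pool LUL15, LUL16, LUL17 and LUL18, 194, 218 and 203 without LPS+ET of LUL15, LUL17 and LUL18, 278 and 302 without LPS+ET+KU of LUL15 and LUL18, and 1103 without LPS of LUL16. The pool fits have fewer samples, and otherwise the cause was not tested. The 24 genes that differed between light and heavy polysomes became 118 at an adjusted p under 0.05, 51 without the filter and 4 without the replicate block, and 7 to 65 with 1 etoposide gradient of either group left out (7 without LPS+ET of LUL15, 65 without LPS+ET of LUL16). The 8 that differed from monosomes became 28, 24 and 1, and 2 to 17 with the same gradients left out.

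Of the 90 named genes called, 89 were called by DESeq2 (Lrrc3 got no adjusted p there), 88 in the 8 gradients alone, 77 by limma and 17 without the replicate block. The call held without each gradient and pool for 32, among them 1700003M07Rik, Bpifb4, Cav2, Ccl5, Ccr7, Ccrl2, Cd83, Cd86, Chac1, Cox4i2, Cxcl10, Ddit3, Ddit4l, Defb1, Dusp4, Egr1, Gal, H2-M3, H2afx, Hist3h2a, Ifit1, Irf4, Mars2, Neurl3, Notch3, Nrp2, Pgf, Ppp1r13l, Rsad2 and Sec14l5. The other 58, Mdm2 and Fas among them, lost it in at least 1 such fit. The 17 called without the block included Bpifb4, Ccl5, Ccr7, Ccrl2, Cxcl10, Dusp4, Egr1, Gal, H2-M3, Hist3h2a, Ifit1, Neurl3, Notch3, Pgf, Ppp1r13l and Rsad2.

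The sign turned in fraction 8 alone for Cox6b1 (0.041), Gm4799 (0.29), Hif1a (0.27), Hyal2 (0.047), Mrpl33 (0.067), Rab22a (0.98), Sfpi1 (0.94), Trp53 (0.18), Trp53i11 (0.27) and Yipf3 (0.0065), in fraction 9 alone for Ccnd2 (-0.034), Igkc (-0.42), Pabpc1 (0.46) and Rps20 (0.27), and in fraction 10 alone for Cdh23 (2.75), Igkc (-0.32) and Pabpc1 (0.17). Pabpc1 was at 0.095 in all 3 limma fits. Without LPS+ET+KU of LUL17, Igkc was at -0.0067 and Tia1 at -0.11. With 1 gradient or pool left out, Igkc ranged from -0.0067 to 0.30, Tia1 from -0.11 to 0.26 and Pabpc1 from -0.37 to 0.062. Shares taken from deposited counts turned sign for Trp53 (1.12 percentage points), Hif1a (1.31), Pabpc1 (-11.5), Tia1 (-6.14) and Tial1 (-0.044), and the Cdkn1a difference was -12.5 (exact permutation p = 0.314). With the replicate block, as sign flips within pools, the exact permutation p of the Cdkn1a share was 0.125 in place of 0.0286. The cause was not tested. Depth limits fraction 10 of LPS+ET of LUL16, with 116995 counts.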

Other observations

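mRNAs with the shortest coding sequences were lower in light polysomes with the inhibitor more often than longer ones, a count made after their values were seen. Of 191 tested genes with a coding length under 300 bases (GENCODE M21), 29 fell and 4 rose, which is 15.2% lower against 3.13% of genes with a longer coding sequence. Their median log2 difference was -0.35 (-0.18 with equal weight of the fractions), beside 0.011 for longer ones. In heavy polysomes it was -0.035 and in monosomes -0.071, and in fractions 8, 9 and 10 it was -0.12, -0.43 and -0.24. The difference between these medians was not tested.

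The 19 genes called in opposite directions in single light fractions, also counted after the values were seen, included Rps15, a ribosomal protein gene (log2 -0.99 in fraction 8 and 1.21 in fraction 9), Med28, a Mediator subunit (0.82, -0.96 and -1.15 in fractions 8, 9 and 10), and Mta2, a chromatin remodelling subunit (1.05, -0.76 and -1.03). Summed over the class, their differences were 0.22, -0.54 and -0.25, and none was called.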
